A study of Oryza sativa with 8 samples.

Results

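The genes described here are the rice genes of the core cell cycle and DNA replication families: A, B and D cyclins (CYCA, CYCB, CYCD), cyclin-dependent kinases (CDK), the kinase subunit CKS, the KRP kinase inhibitors, the MCM helicase, the sliding clamp PCNA, its loader RFC, the single-strand binding protein RPA, the origin recognition complex (ORC) and E2F. They were picked by symbol or synonym and not by expression value, but the families were chosen with earlier results of these data known. Of the 17905 genes with a probe set annotated to 1 gene alone, 58 were members, with 74 such probe sets among the 57194 on the array. By family there were 3 CYCA, 4 CYCB, 9 CYCD, 11 CDK, 1 CKS, 4 KRP, 8 MCM, 1 PCNA, 5 RFC, 7 RPA and 5 ORC genes, and 0 E2F genes. A further 9 gene names of these families had no one-gene probe set and were not analysed here: CDKB1-1, CDKC-2, CDKF-2, CYCA3-1, CYCB1-5, CYCD2-1, KRP2, KRP3 and ORC6.

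A total of 8 one-colour Affymetrix arrays were hybridised with RNA from shoots and leaves of rice seedlings, all of cultivar Zhonghua 11 (ZH11) grown in potting soil to the 4-leaf stage. The seedlings overexpressed OsTMF (OE) or were wild type (ZH11), and were sampled after 24 h in a chamber at a constant 4 °C (cold) or before they were moved there (normal). The 4 groups, OE cold, OE normal, ZH11 cold and ZH11 normal, had 2 arrays each, and the series addresses how OsTMF overexpression alters the response to cold. Each OE group held 1 array of each of 2 independent transgenic lines, with OE-24 as replicate 1 and OE-29 as replicate 2, and the ZH11 replicates were independent biological ones. The promoter of the overexpression construct is not given in the sources used here, and OsTMF was not matched to a probe set, so its level is not given. The normal seedlings were sampled first, so the temperature, the day of growth and the move to the chamber cannot be told apart in the cold comparisons.

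Cyclins bind and activate cyclin-dependent kinases, which drive the cell from growth into DNA synthesis and then into mitosis. Before DNA synthesis the origin recognition complex loads the MCM helicase on DNA, and during synthesis RPA coats the single strands while RFC loads PCNA, the ring that holds the polymerases. In a grass seedling most division takes place in the shoot meristem and at the bases of young leaves, so whole shoots and leaves hold a minority of dividing cells.

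Values are probe-set signals on a linear scale, and changes are log2 changes of signal + 16, with the standard error from limma. A probe set was tested where its mean signal over the 8 arrays was above 17.6, the 40th percentile, which took in 15858 genes. A gene was called at an adjusted p under 0.05 (Benjamini-Hochberg over all tested probe sets), and the brightest probe set stood for a gene. Of the 58 members 49 were tested. The other 9, CYCB1-3, CYCB2-2, CYCD2-2, MCM6, MCM7, MCM8, ORC1, ORC3 and RPA32C, had mean signals of 5.2 to 17.1, below the array medians of 27.2 to 28.2. The number of arrays limits the precision.

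The tissue labels were set against marker genes. The summed signal of 8 green leaf genes was 28014.0 and 27158.1 in OE cold and 49343.3 and 49273.5 in OE normal, against 26941.5 and 27932.5 in ZH11 cold and 50531.2 and 48365.2 in ZH11 normal. Of the 7 leaf genes tested, 4 fell and 1 rose with cold in each genotype. Of all tested genes, 41.7% were called lower and 25.6% higher in OE, and 45.2% and 25.8% in ZH11. CAB2R (-3.24 in OE, -3.39 in ZH11) and LHCP (-3.72 and -3.67) fell most. RBCS did not pass (-0.01 and -0.06), and RCA rose (0.38 and 0.59). The 5 class 1 KNOX genes, which mark the shoot meristem, had low signals on every array: their sums were 87.6 and 82.2 in OE cold, 80.0 and 70.3 in OE normal, 100.7 and 94.6 in ZH11 cold and 80.5 and 72.5 in ZH11 normal, and only OSH43 was bright enough to be tested. The 2 root genes, IRT1 and LSI1, summed to 298.1 and 311.7 in OE cold and 224.0 and 341.9 in OE normal. Their sums were 203.8 and 206.0 in ZH11 cold and 210.3 and 235.1 in ZH11 normal. LSI1 had a mean signal of 203.4, above the array medians, and the source of that signal was not tested. The part of a changed tissue makeup in the results below was not tested. In whole shoots, fewer cells of a type and less RNA per cell cannot be told apart.

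Cold moved the members in both directions. In OE, 30 of 49 tested members were called, 61.2%, beside 67.3% of all tested genes. Of these, 14 were higher and 16 lower, 28.6% and 32.7% of the members, beside 25.6% and 41.7% of all genes. In ZH11, 35 members were called, 71.4%, beside 71% of all genes, with 12 higher and 23 lower (24.5% and 46.9%, beside 25.8% and 45.2%). The shares of members called were thus close to those of genes at large. The family counts below are to be read beside these shares of all genes. Whether the share of any family differs from them was not tested. The median change of the members was -0.11 in OE and -0.26 in ZH11, and that of all tested genes was -0.14 in OE and -0.18 in ZH11. The OE split moved with the setting: it was 15 higher and 14 lower under quantile normalization (median 0.02) and without OE-29 before cold (median 0.02), and 10 higher and 22 lower without OE-24 before cold (median -0.18). These counts take the brightest probe set of CDKE-1 and CDKG-2, whose probe sets were called in opposite directions. Without both genes, a choice made after seeing the data, 13 rose and 15 fell in OE and 11 rose and 22 fell in ZH11, of 47 tested.

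The OE and ZH11 cold comparisons share no array, and their calls can be set side by side. Of the members called higher, 11 were so in both genotypes, 78.6% of those of OE and 91.7% of those of ZH11. Of the members called lower, 15 were so in both, 93.8% of those of OE and 65.2% of those of ZH11. Over all genes the corresponding shares were 87.4% and 86.9% for higher calls and 91.9% and 84.8% for lower calls. No member was called in opposite directions in OE and ZH11, beside 15 of all 15858 tested genes.

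Cold changes of 2-fold or more were carried by a few members. In OE, 6 members rose and 5 fell by at least that much, 12.2% and 10.2% of those tested, beside 8.25% and 12% of all genes. In ZH11, 7 rose and 7 fell, 14.3% each, beside 8.64% and 14.5%. The members that fell this far in both genotypes were CKS1, PCNA, RPA14, ORC2 and CYCD3-1, and those that rose this far in both were CDKG-1, CYCD5-3, CYCD6-1, KRP5 and RPA70B. The brightest probe set of CDKG-2 is also in the count of rises in each genotype, and its dimmer probe sets fell. In ZH11 alone, KRP4 rose this far (1.02), and RFC3 (-1.29) and RFC5 (-1.16) fell this far.

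**Figure D1:**
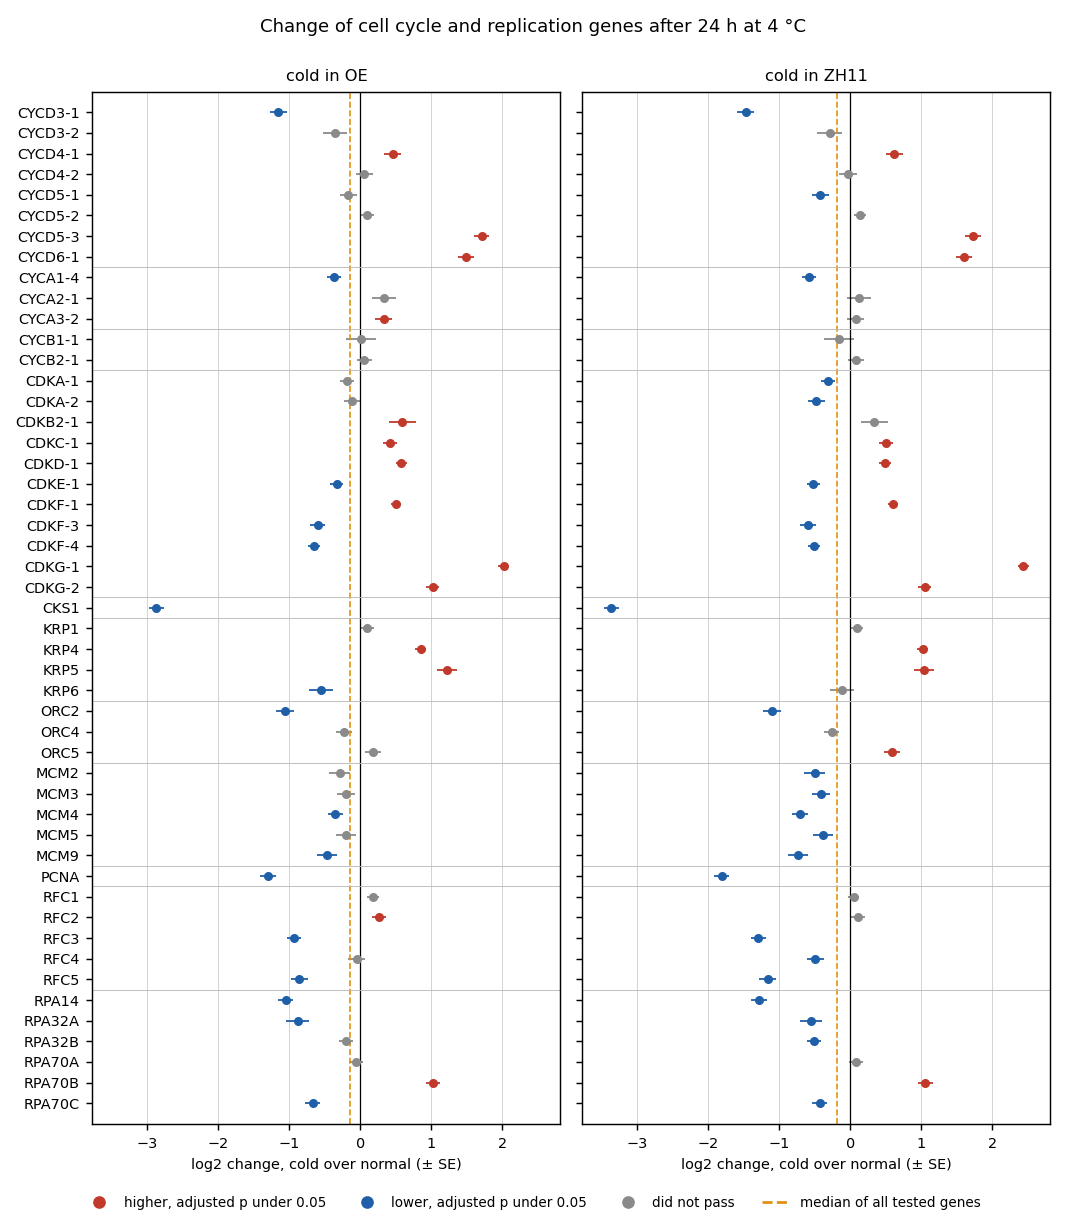
Log2 change of signal + 16 with cold for the 49 tested members, grouped by family, in OE (left) and ZH11 (right); points are limma estimates, bars standard errors, and the dashed line the median of all tested genes (-0.14 in OE, -0.18 in ZH11). CKS1 lies farthest to the left, at -2.87 in OE and -3.36 in ZH11, CDKG-1 farthest to the right, at 2.02 and 2.44, and all 5 MCM genes lie left of 0 in both panels.

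D cyclins relay growth and nutrient signals to the kinases that start DNA synthesis. Of the 8 tested, 3 rose and 1 fell with cold in OE, and 3 rose and 2 fell in ZH11, with medians of 0.08 in OE and 0.06 in ZH11. CYCD5-3 had signals of 473.8 and 414.1 in OE cold and 119.1 and 129.7 in OE normal, against 468.5 and 535.2 in ZH11 cold and 140.1 and 138.7 in ZH11 normal. Its signal was high on all 4 cold arrays, with no overlap with the normal arrays in either genotype. It rose by 1.71 ± 0.11 in OE (adjusted p = 3.02e-07) and by 1.73 ± 0.11 in ZH11 (adjusted p = 2.36e-07).

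CYCD6-1 rose likewise, by 1.49 ± 0.11 in OE (adjusted p = 1.39e-06) and by 1.60 ± 0.11 in ZH11 (adjusted p = 7.01e-07). Its signals were 133.6 and 148.1 in OE cold and 42.7 and 36.9 in OE normal, against 162.2 and 151.0 in ZH11 cold and 39.0 and 42.7 in ZH11 normal, again without overlap. CYCD3-1 went the other way, with signals of 30.3 and 32.7 in OE cold and 92.3 and 86.0 in OE normal, against 19.0 and 15.3 in ZH11 cold and 84.2 and 68.0 in ZH11 normal. The cold arrays were all below the normal ones, and the ZH11 cold arrays were the lowest. The change was -1.15 ± 0.12 in OE (adjusted p = 1.33e-05) and -1.47 ± 0.12 in ZH11 (adjusted p = 1.76e-06).

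Among the other D cyclins, CYCD4-1 rose by 0.46 in OE (adjusted p = 0.00947) and by 0.62 in ZH11 (adjusted p = 0.00137). The OE call of CYCD4-1 was lost without OE-24 in either treatment (adjusted p = 0.0511 to 0.0705). CYCD5-1 fell in ZH11, by -0.42 (adjusted p = 0.00964), and was at -0.17 in OE. Its ZH11 call was lost without replicate 1 of ZH11 normal or replicate 2 of ZH11 cold (-0.41 in both). It was also lost under at least 1 of quantile normalization and median centring. CYCD3-2, CYCD4-2 and CYCD5-2 passed in neither genotype, with changes between -0.35 and 0.14.

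A cyclins act from DNA synthesis to mitosis and B cyclins at mitosis. They moved little: of the 5 tested, 1 rose and 1 fell in OE and 1 fell in ZH11. CYCA1-4 had signals of 134.8 and 144.3 in OE cold and 178.6 and 191.4 in OE normal, against 105.3 and 116.2 in ZH11 cold and 170.9 and 176.6 in ZH11 normal. Cold arrays lay below normal arrays in each genotype. CYCA1-4 fell by 0.37 ± 0.10 in OE (adjusted p = 0.0109) and its change was -0.58 ± 0.10 in ZH11 (adjusted p = 0.000602). The OE call was lost under quantile normalization (adjusted p = 0.0654) and without OE-24 after cold (adjusted p = 0.0716). CYCA3-2 rose in OE, by 0.33 (adjusted p = 0.041, or 0.0567 to 0.19 without OE-24 before cold or either line after cold), and was at 0.08 in ZH11. CYCA2-1 passed in neither genotype, at 0.34 in OE and 0.12 in ZH11.

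The mitotic cyclin CYCB1-1 had 62.7 and 69.6 in OE cold and 59.4 and 72.2 in OE normal, against 63.9 and 48.8 in ZH11 cold and 46.1 and 88.8 in ZH11 normal. The ZH11 normal replicates lay on either side of all other arrays, and the change with cold was 0.01 ± 0.21 in OE and -0.16 ± 0.21 in ZH11, neither past the threshold. CYCB2-1 was at 0.06 in OE and 0.08 in ZH11, and CYCB1-3 and CYCB2-2 were too dim to test.

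The cyclin-dependent kinases include cell cycle kinases (CDKA, and the plant-specific mitotic CDKB) and kinases known mainly for other work, such as CDKD, which activates other kinases, and CDKC and CDKE, which act on transcription. Of the 11 tested by their brightest probe sets, 6 rose and 3 fell in OE, and 5 rose and 5 fell in ZH11, or 5 and 2 in OE and 4 and 4 in ZH11 without CDKE-1 and CDKG-2. CDKG-1, whose Arabidopsis relatives act in splicing and meiosis, had signals of 1888.9 and 1813.8 in OE cold and 415.6 and 473.1 in OE normal, against 2044.3 and 2174.0 in ZH11 cold and 389.5 and 359.3 in ZH11 normal. The cold arrays stood far above the normal arrays in each genotype. The rise was 2.02 ± 0.08 in OE (adjusted p = 1.95e-08) and 2.44 ± 0.08 in ZH11 (adjusted p = 5.06e-09), and 412 of the 15858 tested genes rose further in OE and 253 in ZH11.

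Smaller rises in both genotypes were those of CDKD-1 (0.58 in OE, 0.49 in ZH11), CDKF-1 (0.50 and 0.60) and CDKC-1 (0.42 and 0.51). CDKF-3 had signals of 188.3 and 173.4 in OE cold and 272.0 and 293.0 in OE normal, against 189.1 and 175.1 in ZH11 cold and 303.4 and 261.6 in ZH11 normal. The genotypes overlapped within each treatment, and cold and normal did not overlap. CDKF-3 fell by 0.60 ± 0.11 in OE (adjusted p = 0.00063) and its change was -0.59 ± 0.11 in ZH11 (adjusted p = 0.000659). CDKF-4 fell too, at -0.65 in OE and -0.51 in ZH11.

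CDKA is the main cell cycle kinase, and CDKB2 acts at mitosis. CDKA-1 was at -0.19 in OE and fell by 0.31 in ZH11 (adjusted p = 0.0164). The ZH11 call of CDKA-1 was lost without replicate 2 of ZH11 normal or replicate 1 of ZH11 cold (-0.26 in both). It was also lost under at least 1 of quantile normalization and median centring. The brightest probe set of CDKA-2 was at -0.11 in OE and at -0.48 in ZH11 (adjusted p = 0.00624), a call lost without replicate 1 of ZH11 normal or of ZH11 cold (adjusted p = 0.0518 to 0.0546).

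The 3 tested probe sets of CDKA-2 gave different pictures. The dimmest had 25.0 and 25.5 in OE cold and 70.1 and 85.0 in OE normal, against 40.3 and 42.4 in ZH11 cold and 93.3 and 73.1 in ZH11 normal. It was low after cold and lowest in OE cold, and it changed by -1.18 ± 0.13 in OE (adjusted p = 1.95e-05) and by -0.78 ± 0.13 in ZH11 (adjusted p = 0.000351). After cold it was lower in OE than in ZH11 by -0.48 ± 0.13 (adjusted p = 0.0372), where the brightest was at 0.33 (adjusted p = 0.102). The middle one passed in neither genotype, at 0.06 in OE and -0.19 in ZH11.

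CDKB2-1 had 66.6 and 74.7 in OE cold and 36.8 and 46.7 in OE normal, against 63.5 and 54.2 in ZH11 cold and 31.5 and 57.4 in ZH11 normal. In ZH11 the treatments overlapped. It rose by 0.59 ± 0.19 in OE (adjusted p = 0.0199), a call that was lost without OE-24 before cold or OE-29 after cold (adjusted p = 0.0928 to 0.118), and was at 0.34 ± 0.19 in ZH11 (adjusted p = 0.137).

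CKS1, the small docking subunit of cyclin-dependent kinase complexes, had the largest fall among the members in each genotype. Its signals were 57.2 and 55.2 in OE cold and 557.4 and 470.2 in OE normal, against 33.1 and 36.7 in ZH11 cold and 502.6 and 509.3 in ZH11 normal. The 4 groups fell into a high pair before cold, which overlapped between genotypes, and a low pair after cold, which did not. CKS1 changed by -2.87 ± 0.11 in OE (adjusted p = 1.14e-08) and by -3.36 ± 0.11 in ZH11 (adjusted p = 3.95e-09). Only 48 of the 15858 tested genes fell further in OE, and 38 in ZH11.

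**Figure D2:**
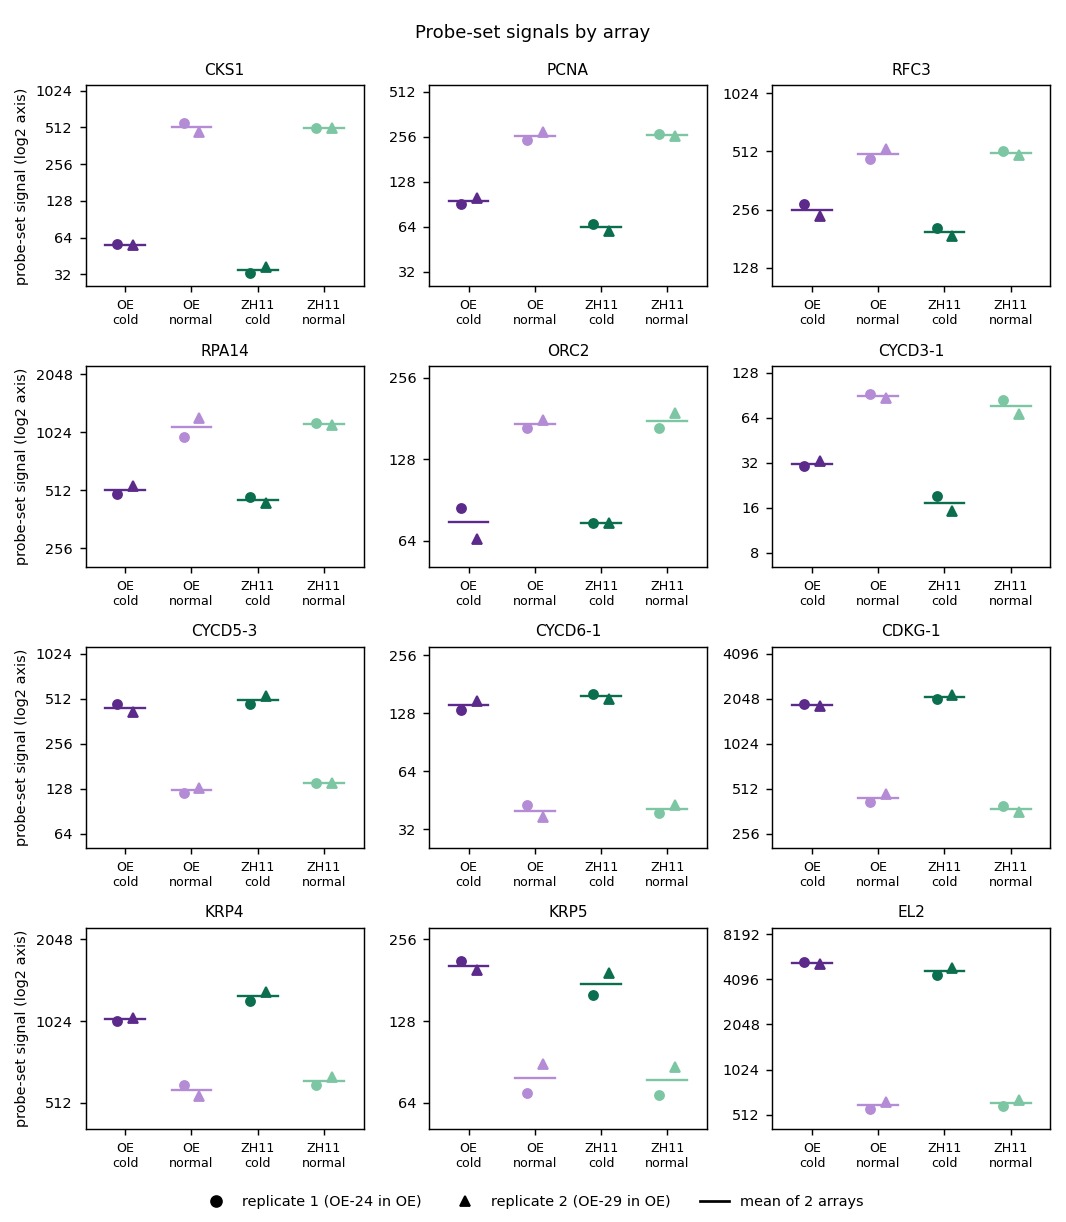
Probe-set signal on each of the 8 arrays (log2 axis) for 11 members and for the kinase inhibitor gene EL2; circles are replicate 1 and triangles replicate 2 (OE-24 and OE-29 in OE), and bars are means of 2 arrays. The cold signals of CKS1, PCNA and CYCD3-1 are low and lie lower in ZH11 cold than in OE cold (CKS1 at 33.1 and 36.7 against 57.2 and 55.2 in OE cold), while CYCD5-3, CYCD6-1, CDKG-1, KRP4, KRP5 and EL2 are high after cold.

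The KRP proteins bind cyclin and kinase complexes and block them. Of the 4 tested, 2 rose and 1 fell in OE and 2 rose in ZH11, with medians of 0.47 in OE and 0.56 in ZH11. KRP5 had signals of 212.4 and 198.0 in OE cold and 69.6 and 88.8 in OE normal, against 159.3 and 191.9 in ZH11 cold and 68.6 and 86.4 in ZH11 normal. The cold arrays of both genotypes were all above the normal arrays. KRP5 rose by 1.22 ± 0.14 in OE (adjusted p = 3.62e-05) and by 1.04 ± 0.14 in ZH11 (adjusted p = 0.00011).

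KRP4 had 1028.0 and 1054.4 in OE cold and 597.6 and 542.2 in OE normal, against 1214.5 and 1315.2 in ZH11 cold and 594.9 and 636.0 in ZH11 normal. It too was high after cold without overlap, and higher in ZH11 cold than in OE cold. The rise was 0.85 ± 0.08 in OE (adjusted p = 6.51e-06) and 1.02 ± 0.08 in ZH11 (adjusted p = 1.46e-06). KRP6 had 249.9 and 325.8 in OE cold and 411.9 and 441.8 in OE normal, against 419.2 and 368.8 in ZH11 cold and 354.0 and 513.7 in ZH11 normal. OE cold was the lowest group, and the ZH11 groups overlapped. KRP6 changed by -0.55 ± 0.17 in OE (adjusted p = 0.0158), a call that was lost without OE-29 before cold or OE-24 after cold (adjusted p = 0.0814 to 0.129), and was at -0.11 in ZH11 (adjusted p = 0.575). KRP1 was at 0.10 in OE and 0.09 in ZH11, neither past the threshold.

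A second group of kinase inhibitors in plants, the SIAMESE-related proteins, includes EL2 and SMR1, which were not members and were listed with the retinoblastoma-related genes RBR1 and RBR2. Of these 4 genes 2 rose and 0 fell in each genotype. EL2 had signals of 5395.2 and 5180.5 in OE cold and 559.1 and 621.3 in OE normal, against 4384.1 and 4905.0 in ZH11 cold and 583.9 and 643.2 in ZH11 normal. Its cold arrays lay far above its normal arrays. It rose by 3.13 ± 0.08 in OE (adjusted p = 1.28e-09) and by 2.89 ± 0.08 in ZH11 (adjusted p = 1.81e-09), and 135 genes rose further in OE and 152 in ZH11. SMR1 rose by 1.89 in OE and 1.85 in ZH11. RBR1 (0.17 in OE, -0.10 in ZH11) and RBR2 (0.03 and -0.01) did not pass.

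Of the origin recognition complex, which marks where replication starts, 3 of 5 genes were tested, and 1 fell in OE while 1 rose and 1 fell in ZH11. ORC2 had signals of 84.5 and 65.3 in OE cold and 166.7 and 178.4 in OE normal, against 74.7 and 74.3 in ZH11 cold and 166.4 and 189.3 in ZH11 normal. Cold arrays lay below normal arrays and the genotypes overlapped within each treatment. It changed by -1.06 ± 0.13 in OE (adjusted p = 4.02e-05) and by -1.10 ± 0.13 in ZH11 (adjusted p = 2.74e-05). ORC5 was dim, at 19.5 and 24.8 in OE cold and 15.7 and 19.4 in OE normal, against 30.5 and 24.0 in ZH11 cold and 12.6 and 12.7 in ZH11 normal. In OE the treatments lay close together and in ZH11 they did not overlap. ORC5 was at 0.18 ± 0.11 in OE (adjusted p = 0.167) and rose by 0.59 ± 0.11 in ZH11 (adjusted p = 0.000632). ORC4 was at -0.23 in OE and -0.26 in ZH11, neither past the threshold.

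The MCM proteins numbered MCM2 to MCM7 form the ring that unwinds DNA at the fork, and MCM8 and MCM9 are relatives known for repair in animals. Of the 5 tested, MCM2, MCM3, MCM4, MCM5 and MCM9, 2 fell in OE and 5 fell in ZH11. Of all tested genes, 41.7% were called lower in OE and 45.2% in ZH11. The MCM medians were -0.29 in OE and -0.50 in ZH11. MCM9 had signals of 108.3 and 82.2 in OE cold and 122.0 and 153.0 in OE normal, against 74.7 and 72.2 in ZH11 cold and 130.8 and 135.0 in ZH11 normal. The treatments did not overlap in either genotype, and the gap was narrow in OE. MCM9 changed by -0.47 ± 0.14 in OE (adjusted p = 0.0165) and by -0.74 ± 0.14 in ZH11 (adjusted p = 0.00106).

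MCM4 had 21.2 and 28.0 in OE cold and 31.9 and 39.4 in OE normal, against 21.2 and 21.2 in ZH11 cold and 43.4 and 46.2 in ZH11 normal. Its cold signals lay near or under the array medians, and the treatments did not overlap in either genotype. It changed by -0.35 ± 0.11 in OE (adjusted p = 0.0218) and by -0.71 ± 0.11 in ZH11 (adjusted p = 0.000268). The other 3 tested genes fell in ZH11, MCM2 by -0.50, MCM3 by -0.41 and MCM5 by -0.38, and were at -0.29, -0.20 and -0.20 in OE, past the threshold in none.

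The MCM counts depended on single arrays. In OE the count of falls was 0 without OE-29 before cold, 1 without either line after cold and 4 without OE-24 before cold. In ZH11 it was 2 without replicate 2 of either treatment, 3 without replicate 1 of ZH11 normal and 4 without replicate 1 of ZH11 cold. The calls of MCM4 and MCM9 in ZH11 were the ones that no left-out array removed. MCM7, under the signal threshold, had 14.2 and 12.2 in OE cold and 16.6 and 19.2 in OE normal, against 8.0 and 13.2 in ZH11 cold and 26.9 and 18.9 in ZH11 normal. MCM6 and MCM8 stayed under the signal threshold on every array.

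PCNA encircles DNA and tethers the polymerases. Its signals were 91.2 and 99.6 in OE cold and 241.7 and 275.0 in OE normal, against 66.4 and 60.1 in ZH11 cold and 266.0 and 258.4 in ZH11 normal. The normal arrays of the genotypes overlapped, and the ZH11 cold arrays lay below the OE cold arrays. PCNA changed by -1.30 ± 0.11 in OE (adjusted p = 2.81e-06) and by -1.81 ± 0.11 in ZH11 (adjusted p = 2.16e-07). Among the 15858 tested genes 1135 fell further in OE and 516 in ZH11.

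Of the 5 RFC genes, the subunits of the complex that loads PCNA, 1 rose and 2 fell in OE and 3 fell in ZH11. RFC3 had signals of 272.6 and 237.9 in OE cold and 469.2 and 529.8 in OE normal, against 206.5 and 186.3 in ZH11 cold and 515.7 and 490.6 in ZH11 normal. Its order of groups was the same as that of PCNA, with ZH11 cold lowest. It changed by -0.93 ± 0.10 in OE (adjusted p = 2.22e-05) and by -1.29 ± 0.10 in ZH11 (adjusted p = 1.59e-06). RFC5 fell with it, at -0.86 in OE and -1.16 in ZH11.

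RFC4 had 110.3 and 111.8 in OE cold and 104.7 and 128.0 in OE normal, against 76.2 and 76.8 in ZH11 cold and 106.2 and 121.2 in ZH11 normal. ZH11 cold was the only group apart from the others. RFC4 was at -0.05 ± 0.12 in OE (adjusted p = 0.735) and changed by -0.49 ± 0.12 in ZH11 (adjusted p = 0.00529, or 0.055 without replicate 2 of ZH11 normal). RFC1, the large subunit, passed in neither genotype (0.18 in OE, 0.05 in ZH11). RFC2 rose by 0.27 in OE (adjusted p = 0.0467) and was at 0.11 in ZH11. Its OE call was lost without any of 7 of the 8 arrays (changes of 0.12 to 0.32). It was also lost under at least 1 of quantile normalization and median centring.

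RPA is a trimer of a large, a middle and a small subunit, and rice has several genes for the large (RPA70) and the middle one (RPA32). Of the 6 tested, 1 rose and 3 fell in OE and 1 rose and 4 fell in ZH11. The small subunit gene RPA14 had signals of 489.3 and 541.1 in OE cold and 963.9 and 1210.4 in OE normal, against 471.9 and 440.3 in ZH11 cold and 1142.2 and 1116.8 in ZH11 normal. Cold and normal arrays did not overlap. RPA14 changed by -1.05 ± 0.11 in OE (adjusted p = 1.13e-05) and by -1.28 ± 0.11 in ZH11 (adjusted p = 2.13e-06).

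The 3 large-subunit genes did not move together. RPA70B had signals of 79.1 and 74.5 in OE cold and 28.4 and 31.1 in OE normal, against 76.6 and 73.3 in ZH11 cold and 28.4 and 26.6 in ZH11 normal. The genotypes were alike to within a few units of signal in each treatment, and the cold arrays were all higher. RPA70B rose by 1.02 ± 0.10 in OE (adjusted p = 8.94e-06) and by 1.06 ± 0.10 in ZH11 (adjusted p = 5.57e-06). RPA70C fell, at -0.67 in OE (adjusted p = 0.00049) and -0.43 in ZH11 (adjusted p = 0.00684, or 0.0533 without replicate 1 of ZH11 normal), and RPA70A passed in neither, at -0.06 in OE and 0.08 in ZH11. Of the middle-subunit genes, RPA32A fell in OE (-0.88, adjusted p = 0.00092) and in ZH11 (-0.55, adjusted p = 0.0141). The ZH11 call of RPA32A was lost without replicate 2 of ZH11 normal or either replicate of ZH11 cold (changes of -0.56 to -0.28). It was also lost under at least 1 of quantile normalization and median centring. RPA32B was at -0.20 in OE and fell in ZH11 (-0.51, adjusted p = 0.00148).

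Other replication factors and other cyclins were counted beside the members. Of 9 other replication genes, 5 fell and 1 rose in OE and 5 fell in ZH11, with medians of -0.32 in OE and -0.55 in ZH11. The nuclease gene GEN1 (-0.57 in OE, -0.88 in ZH11) had the largest fall of that list in ZH11, where none rose. Of 8 other cyclins 7 were tested, of which 1 rose and 3 fell in OE and 2 rose and 4 fell in ZH11. CYCP2-1 fell most in ZH11, at -1.49, and was at -1.84 in OE, while CYCP4-1 rose in ZH11 (0.73, adjusted p = 0.00862) and was at 0.19 in OE.

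A total of 5 members had more than 1 tested probe set, and for 2 of them, CDKE-1 and CDKG-2, probe sets of the same gene were called in opposite directions. The brightest probe set of CDKE-1, the kinase of the Mediator complex, had 405.6 and 399.6 in OE cold and 475.2 and 548.1 in OE normal, against 335.5 and 331.8 in ZH11 cold and 496.0 and 476.2 in ZH11 normal. It was low after cold, changing by -0.33 ± 0.09 in OE (adjusted p = 0.00862) and by -0.52 ± 0.09 in ZH11 (adjusted p = 0.000444). The other had 197.5 and 205.6 in OE cold and 35.7 and 49.8 in OE normal, against 110.0 and 107.0 in ZH11 cold and 49.3 and 40.3 in ZH11 normal. It was high after cold and highest in OE cold. It rose by 1.90 ± 0.14 in OE (adjusted p = 8.72e-07) and by 1.04 ± 0.14 in ZH11 (adjusted p = 6.97e-05). After cold it was higher in OE than in ZH11 by 0.81 ± 0.14 (adjusted p = 0.00477), and its interaction was 0.86 ± 0.19 (adjusted p = 0.0711).

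The brightest probe set of CDKG-2 had 1952.2 and 1953.5 in OE cold and 867.3 and 1048.3 in OE normal, against 1990.7 and 1937.4 in ZH11 cold and 943.2 and 935.5 in ZH11 normal. It was high after cold and rose by 1.02 ± 0.09 in OE (adjusted p = 2.77e-06) and by 1.05 ± 0.09 in ZH11 (adjusted p = 1.91e-06). The next had 58.8 and 61.4 in OE cold and 171.3 and 192.1 in OE normal, against 39.8 and 40.4 in ZH11 cold and 184.3 and 183.0 in ZH11 normal. It was low after cold, at -1.38 in OE and -1.83 in ZH11, and the dimmest of the 3 fell as well, at -0.64 and -0.90. Taking the mean of all one-gene probe sets turned the sign of both genes in both genotypes, so the calls of CDKE-1 and CDKG-2 in the counts above are those of their brightest probe sets and not a direction of the genes. Which transcript each probe set reports was not tested.

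**Figure D3:**
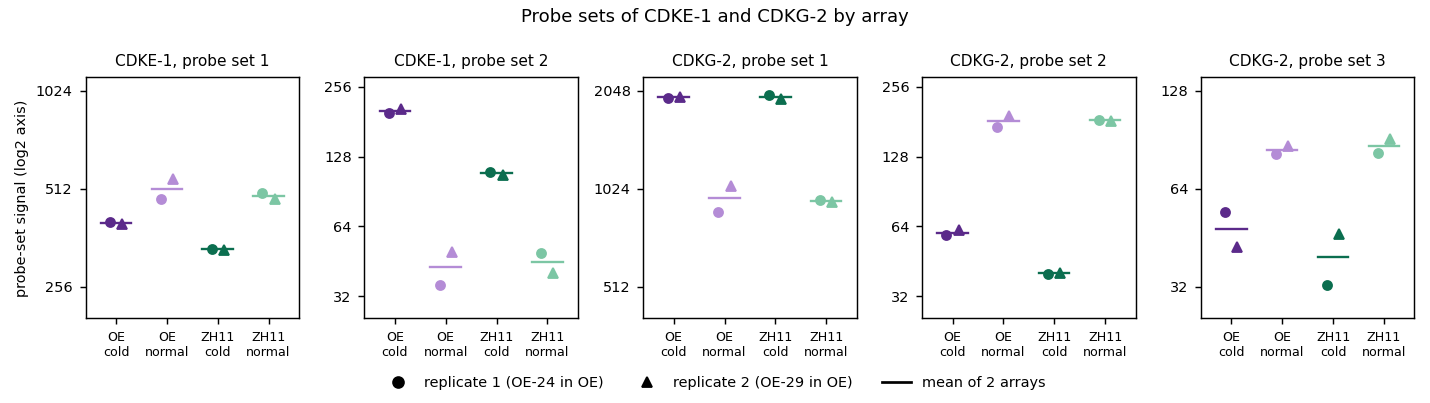
Probe-set signals on the 8 arrays (log2 axis) for the tested probe sets of CDKE-1 and CDKG-2, in the groups OE cold, OE normal, ZH11 cold and ZH11 normal. The brightest probe set of CDKE-1 is lower on the cold arrays (405.6 and 399.6 in OE cold against 475.2 and 548.1 in OE normal) and its other probe set is higher (197.5 and 205.6 against 35.7 and 49.8), and for CDKG-2 the brightest is higher after cold and the other 2 are lower.

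Before cold, no member was called as different between OE and ZH11. Of 49 tested, 0 passed in limma, beside 1.51% of all tested genes, and 2 had an unadjusted p under 0.05. The count was 0 in all 18 alternative settings. Log2 differences ran from -0.24 for MCM4 to 0.25 for CDKC-1, with a median of 0.00 beside 0.01 for all genes.

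After cold, 6 of 49 members passed, 12.2%, beside 17.9% of all tested genes. In OE 5 were higher than in ZH11 (11.4% of all genes were) and 1 was lower (6.51%). The split was 4 higher and 2 lower under quantile normalization and 6 higher and 0 lower under median centring. Log2 differences over the members ran from -0.44 to 0.52, with a median of 0.10 beside 0.06, and 15 had an unadjusted p under 0.05. Whether the share of members differs from that of genes at large was not tested. Probe sets that do not stand for their gene are outside this count, among them those of CDKE-1 and CDKG-2 called higher and that of CDKA-2 called lower in OE cold.

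CYCD3-1 was higher in OE cold by 0.52 ± 0.12 (adjusted p = 0.0193), CKS1 by 0.51 ± 0.11 (adjusted p = 0.0158) and PCNA by 0.49 ± 0.11 (adjusted p = 0.0172). RFC4 was higher by 0.46 ± 0.12 (adjusted p = 0.0339) and RFC3 by 0.35 ± 0.10 (adjusted p = 0.0489). KRP4 was the 1 gene lower in OE cold, by -0.28 ± 0.08 (adjusted p = 0.0483). The calls of RFC3 and KRP4 lay closest to the threshold, and each was lost in 12 of the 18 alternatives (adjusted p of 0.0512 to 0.26 for RFC3 and 0.0503 to 0.274 for KRP4), both without either ZH11 normal array too. For each of these 6 genes the OE cold and ZH11 cold signals given above did not overlap. The calls come from these same arrays, so the lack of overlap is no further support for them.

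These calls rested on every cold array: leaving out either OE cold array or either ZH11 cold array left 0 members called, with adjusted p of 0.0515 to 0.274 for the 6 genes, while leaving out either ZH11 normal array gave 4 and either OE normal array gave 10. Without 1 cold array the differences lay between 0.26 and 0.60 for the 5 higher genes and between -0.33 and -0.22 for KRP4. Their direction could not turn, since the OE cold and ZH11 cold arrays did not overlap for these 6 genes. Among the members that did not pass, the widest differences were -0.44 for KRP6 (adjusted p = 0.109), -0.39 for CYCD4-1 (adjusted p = 0.0675) and 0.34 for both RPA32B (adjusted p = 0.0525) and MCM2 (adjusted p = 0.168). Outside the member families, CYCH-1, the cyclin partner of CDKD, was higher in OE cold by 0.50 ± 0.12 (adjusted p = 0.0202) and CYCP4-1 was lower by -0.89 ± 0.20 (adjusted p = 0.0169). These were the calls among 7 other cyclins tested, where 17.9% of all tested genes passed. Of 9 other replication genes, TOP6B was called higher, by 0.33 (adjusted p = 0.043). In the marker lists PSAH and HOS59 were called higher and WOX5 lower.

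**Figure D4:**
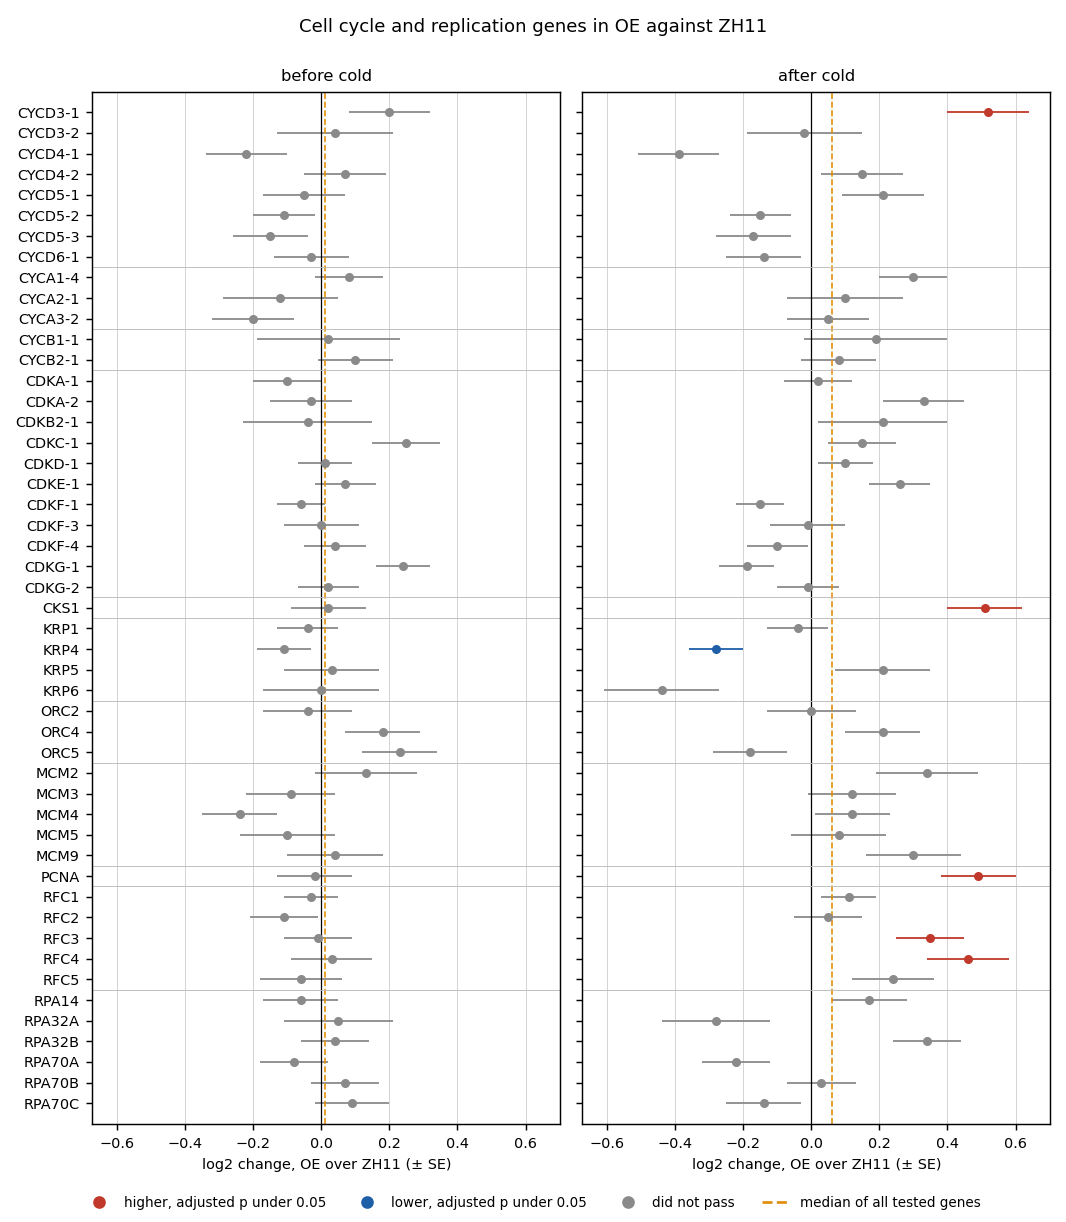
Log2 difference of OE over ZH11 for the 49 tested members before cold (left) and after cold (right); points are limma estimates, bars standard errors, and the dashed line the median of all tested genes (0.01 before, 0.06 after). No member passed before cold, where differences lie between -0.24 and 0.25, and after cold CYCD3-1, CKS1, PCNA, RFC3 and RFC4 passed as higher and KRP4 as lower.

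Whether the cold change itself differed between OE and ZH11 was tested as an interaction, in which a positive value means a less negative or more positive cold response in OE. No member passed (0 of 49 in limma, beside 1.53% of all genes), 7 had an unadjusted p under 0.05, and the count was 0 in all 18 alternatives. Differences ran from -0.44 to 0.51 with a median of 0.12, beside 0.05 for all genes, and 29 of 49 were above 0, beside 58.8% of all genes. The widest were 0.51 ± 0.15 for PCNA (adjusted p = 0.167) and 0.49 ± 0.16 for CKS1 (adjusted p = 0.189) above 0, and -0.44 for KRP6 and -0.42 ± 0.12 for CDKG-1 (adjusted p = 0.141) below it. All 6 PCNA and RFC genes lay above 0, at 0.13 to 0.51, and so did all 5 tested MCM genes, at 0.18 to 0.36, none of them past the threshold. Of the other families, 3 of 8 D cyclins, 4 of 5 A and B cyclins and 5 of 11 CDK genes lay above 0. So did 1 of 4 KRP, 2 of 3 ORC and 2 of 6 RPA genes. The genes of a family were measured on the same 8 arrays and are not replicates of each other. Without OE-24 before cold the MCM values were -0.04 to 0.25, with MCM5 below 0, and without replicate 2 of ZH11 cold the lowest was -0.03, while the PCNA and RFC values stayed above 0 without any 1 array, at 0.01 to 0.60. The falls of PCNA and CKS1 in OE and ZH11 are therefore not shown to differ in size.

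The arrays within a group differed unevenly over the members. In OE normal, line OE-29 was higher than OE-24 for 38 of 49 members, 77.6%, beside 69.2% of all tested genes, with a median difference of 0.18 beside 0.09. Under quantile normalization this was 35 members, 71.4%, beside 58.6%. In OE cold, OE-29 was higher for 27 members, 55.1% beside 45.5%. In ZH11 cold, replicate 2 was higher for 17 members, 34.7% beside 48.6%, and in ZH11 normal for 28, 57.1% beside 48.4%. The widest gaps in ZH11 normal were in CYCB1-1 (0.75), CDKB2-1 (0.63), RPA32A (0.54) and KRP6 (0.52), each higher in replicate 2. With 1 array per line and treatment, a difference between lines and one between single samples cannot be told apart.

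**Figure D5:**
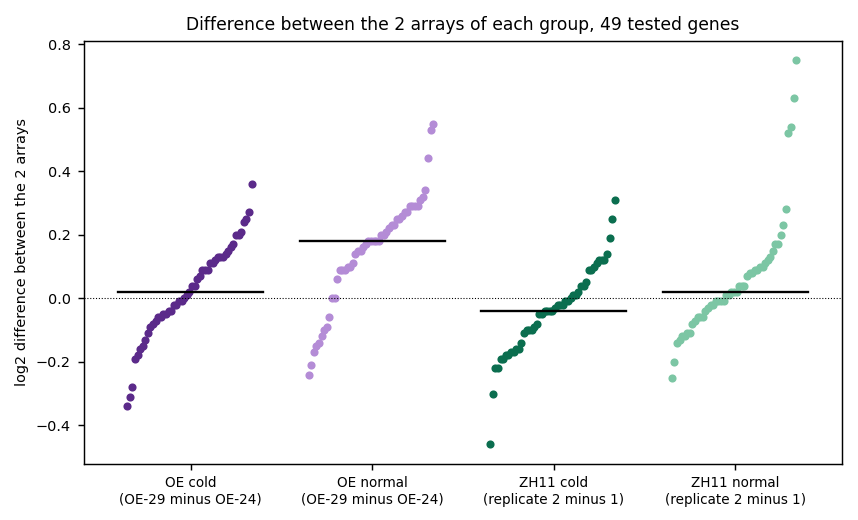
Log2 difference between the 2 arrays of each group for the 49 tested members, sorted within a group; each point is a gene and each bar the group's median. The points of OE normal (OE-29 minus OE-24) lie mostly above 0, with a median of 0.18, while the medians of OE cold, ZH11 cold and ZH11 normal are 0.02, -0.04 and 0.02.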

How the data were processed

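The authors deposited one intensity per probe set and array, on a linear scale. Per the labels, biotinylated cRNA was made from total RNA extracted with TRIzol. How probe sets were summarised, background was removed and arrays were scaled to each other is not given in the sources used here. Names came from the array's annotation and the synonyms of a RefSeq gene table (assembly ASM3414082v1), in which all 58 members were found, and no gene coordinates or sequences were used. Of 57194 probe sets, 22436 had 1 gene, 95 several and 34663 none. Matches that were only name collisions were left out, among them rFCA, and some synonyms are shared (CYCB2-1 and CYCB2-2 are both listed as CYCB2, and CYCB1-3 and ORC5 also carry the names CycB1-1 and OsORC1). Probe sets whose name ends in _x_at or _s_at can match related transcripts, and those standing for MCM9, CDKA-2, CDKA-1 and ORC4 are of this kind, as is the CDKG-2 probe set of middle brightness.

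Signals were taken to log2 after adding 16, without rescaling, and 34313 probe sets above the 40th percentile of mean signal were fitted by group with limma 3.58.1 (eBayes with a trend, R 4.3.3), which left 4 residual degrees of freedom. The 5 comparisons were cold in each genotype, OE against ZH11 before and after cold, and the interaction. The fit was tried on simulated data in which a small share of probe sets had known changes in ZH11 cold. Only the comparison of cold in ZH11 was read out, so that trial does not bear on the other comparisons. The members, the other gene lists and the tests were chosen with earlier results of these data known. Arrays were named in full for the largest called rise and fall with cold in ZH11 per family, for every member called in a genotype comparison and for members whose probe sets disagreed. CYCD6-1, CYCB1-1, CDKB2-1, KRP6, MCM4, MCM7 and the dimmest CDKA-2 probe set were added after their values were seen. The list of mitosis regulators held EL2, SMR1, RBR1 and RBR2, and no histone gene was matched by name.

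In OE the replicate number is the line, which pairs cold with normal arrays, while the ZH11 replicates are independent. The difference between replicates before cold had a correlation of 0.128 with that after cold in OE and -0.02 in ZH11, across 34313 probe sets, which are not independent replicates. The 18 alternatives changed the pseudocount, the filter, the normalization, the trend, the choice of probe set and the replicate block, or left out 1 array.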

Additional observations from a re-analysis of the deposited data

How the results depend on the processing

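Counts of called members with cold kept within 1.5 times in all 18 alternatives: leaving out 1 array gave 24 to 32 in OE and 30 to 36 in ZH11. No called member turned its sign under quantile normalization, median centring or without an array. Where the arrays of the groups compared did not overlap, leaving out 1 array could not turn the sign. In OE 20 of 30, and in ZH11 24 of 35, kept their calls in every alternative in which they were tested. The filter at the 60th percentile tested 34 members. After cold, the count of members differing between OE and ZH11 was 0 to 10 when 1 array was left out, 3 with a pseudocount of 64, 5 with a pseudocount of 1, 4 without the signal filter and 9 with the mean of a gene's probe sets. With the replicate block over all arrays it was 4, and with the block within OE alone it was 6. The block gave 31 called members for cold in OE under both forms, and 35 and 36 for cold in ZH11, and 0 before cold and for the interaction. RFC3 (adjusted p = 0.066) and KRP4 (adjusted p = 0.0707) lost their calls after cold with the replicate block over all arrays, and RFC3 also with the block within OE (adjusted p = 0.0512). With the mean of all probe sets, CDKE-1 changed by 0.78 in OE and 0.26 in ZH11, and CDKG-2 by -0.33 in OE and -0.56 in ZH11, each with its sign turned. The OE call of MCM9 was lost under quantile normalization and without OE-29 in either treatment (adjusted p = 0.0624 to 0.149). A fit without 1 array assumes that the lone array of its group varies like the other groups. Signals near the array medians, as for most MCM genes and ORC5, limit what the changes of those genes can show, and a pseudocount of 16 shrinks them.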

Other observations

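Genes matched by name as growth-regulating factors were a list of 18 that includes the GRF and PCF families. Of 16 tested, 10 rose, 0 fell and 6 did not pass in each genotype. Of all tested genes, 25.6% were called higher in OE and 25.8% in ZH11. The medians of the list were 0.48 in OE and 0.68 in ZH11, beside -0.14 and -0.18 for all tested genes. GRF3 rose by 2.13 in OE and 2.04 in ZH11, and GRF1 by 1.89 and 2.02. PCF2 rose by 1.38 in OE and 1.42 in ZH11, and PCF8 by 1.28 and 1.34. PCF1 and PCF2 are TCP factors that were named in rice for binding the promoter of PCNA, and PCF1 passed in neither genotype, at -0.24 in OE and -0.03 in ZH11. No gene of this list differed between OE and ZH11 after cold in limma (0 of 16, 2 at an unadjusted p under 0.05). The list also held the gene annotated as ANT, an abbreviation in use for a mitochondrial carrier too (0.51 in OE, 0.74 in ZH11). ANT is among the 10 that rose in each genotype and is in the medians, and it may not be a transcription factor.

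Of 7 DNA damage and repair genes 6 were tested, of which 2 fell in OE and 5 fell in ZH11, and 0 rose in either. Of all tested genes, 41.7% were called lower in OE and 45.2% in ZH11. RAD23, a receptor that brings ubiquitinated proteins to the proteasome and acts in excision repair in yeast, fell most, at -1.34 ± 0.08 in OE (adjusted p = 2.37e-07) and -1.56 ± 0.08 in ZH11 (adjusted p = 6.69e-08). The dimmer 2 of its 3 tested probe sets gave -1.33 and -0.08 in OE. The brightest probe set of KU70 was at -0.02 in OE and fell in ZH11 (-0.45), while its other 2 tested probe sets fell in both, at -0.61 and -0.36 in OE and -0.98 and -0.61 in ZH11. The gene annotated as RAD in this list is GEN1 of the replication list. Of the root markers, IRT1 changed by -1.02 in OE and -1.13 in ZH11, while LSI1 rose in OE (0.45) and was at 0.21 in ZH11. Of the seed storage genes 2 of 7 were bright enough to test, and the brightest probe set of GLUA-2 fell, at -0.30 in OE and -0.48 in ZH11 (0.08 and 0.00 in its other one). In the wider meristem list the broadly expressed class 2 KNOX genes HOS58, HOS59 and HOS66 carry most of the signal. Of its 6 tested genes, 3 rose and 1 fell in each genotype. Of all tested genes, 25.6% were called higher in OE and 25.8% in ZH11. HOS58 and HOS66 rose and HOS59 fell in both genotypes. WOX4 was called higher in OE alone (0.25) and WOX5 in ZH11 alone (0.26).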
